A study of Mus musculus with 8 samples.

Results

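The miR-21 family of the mouse was examined in primary articular chondrocytes, the cells of joint cartilage, exposed to the proinflammatory cytokine IL-1β. Its members were taken by name from the table of mature miRNAs: miR-21a-5p and miR-21a-3p, the arms of one hairpin, and the single listed products of miR-21b and miR-21c. All 4 names were among the 1966 of the table, and 2 of the 4, the arms of miR-21a, had at least 1 count. The chondrocytes came from femoral head cartilage of 3-week-old wild-type mice, were released with collagenase and were grown in high-glucose DMEM with fetal bovine serum. One group received vehicle (n = 4 libraries) and the other IL-1β at 1 ng/ml (n = 4 libraries), each for 24 h. Strain, sex and the number of animals behind a library were not given in the sources used here, nor was it said whether libraries came from separate cultures, so p-values measure the spread between these libraries, which may be technical.

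A miRNA is cut from a hairpin precursor and guides Argonaute proteins to mRNAs, mostly through pairing of its seed, bases 2 to 8, with sites in 3′ untranslated regions. miR-21-5p is the guide arm of its hairpin and is known for repressing Pdcd4, Spry1 and Reck, which restrain growth signaling or matrix proteases. Its gene sits within the locus of Vmp1, an autophagy gene, yet has a promoter of its own that is driven by AP-1 and STAT3, factors activated in inflammation and stress.

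The mature sequences (RefSeq, GRCm38.p6) are shown because shared and differing bases decide which reads can be assigned to which member. The seed is in capitals.
mmu-miR-21a-5p: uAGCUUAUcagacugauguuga
mmu-miR-21c: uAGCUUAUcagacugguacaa
mmu-miR-21b: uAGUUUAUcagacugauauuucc
mmu-miR-21a-3p: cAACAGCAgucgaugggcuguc

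miR-21a-5p and miR-21c share the seed AGCUUAU, which pairs with AUAAGCU in a target. No other of the 1679 named mature miRNAs of the RefSeq table, which held 1675 of the 1966 names of the count table, had this seed, and none shared the seed of miR-21a-3p, AACAGCA. Counted from the 5′ end of miR-21a-5p, miR-21c was identical over 15 bases and then differed by A16G, G18A, U19C, U20A and G21A. miR-21b differed by C4U, inside the seed, and by G18A, G21U and A22C. A read of the full miR-21a-5p sequence therefore matches neither relative exactly.

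The hairpins lie on separate chromosomes. miR-21a-5p is at chr11:86584120-86584141 and miR-21a-3p at chr11:86584082-86584103, both on the minus strand, in the hairpin gene Mir21a (chr11:86584067-86584158). This hairpin lies within the 3′ UTR part of exon 12 of Vmp1 on the same strand (GENCODE vM21). Of 141767 annotated transcripts, 2 held the sequence of miR-21a-5p, those of Mir21a and Vmp1-201, and the same 2 held miR-21a-3p. Counts of the mature sequence thus cannot separate a miRNA from a fragment of Vmp1 mRNA by sequence alone. miR-21b (chr3:29636768-29636790, plus strand) is in an intron of Egfem1, and miR-21c (chr8:128278188-128278208, minus strand) overlapped no other annotated gene.

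The libraries held 616475 to 1568367 counts, so that 1 count was worth 0.638 to 1.62 counts in 1000000 of the library (CPM). Values below are normalized CPM, for which library totals were scaled by the trimmed mean of M values (TMM). Among the chondrocyte markers, miR-140-3p, a hallmark miRNA of cartilage, had the highest mean of all 564 tested miRNAs over the 8 libraries. Its rank was 1 with vehicle and 2 with IL-1β. The 4 marker arms of miR-140 and miR-455 together, nearly all of it miR-140-3p, gave 153547 to 168966 normalized CPM with vehicle and 132602 to 155815 with IL-1β. All 4 had a log2FC below 0, where 285 of all 564 tested miRNAs were above 0, and none was called (0.532% of all were called lower). Of the 4, miR-455-3p was lower in each IL-1β library than in any vehicle library, where 3.01% of all tested miRNAs were (5194 ± 261 and 4065 ± 733, SD, n = 4, log2FC -0.35, edgeR adjusted p = 0.0691). One library stood apart: across the 195 miRNAs that averaged 50 counts or more, the SD of the deviations from the other libraries of the group was 0.402 on the log2 scale in IL-1β replicate 4, against 0.151 to 0.233 in the other 7.

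miR-21a-5p, the guide arm, was higher in each of the 4 IL-1β libraries than in any vehicle library. In vehicle replicates 1 to 4 it was at 358, 387, 344 and 330 normalized CPM, from 338, 580, 550 and 212 counts. In IL-1β replicates 1 to 4 it was at 633, 584, 475 and 694 normalized CPM, from 396, 693, 325 and 554 counts. The groups did not overlap, and the lowest IL-1β library, replicate 3, exceeded the highest vehicle library, replicate 2, by 1.23-fold. The same separation upwards was seen for 4.61% of all tested miRNAs, and one downwards for 3.01%.

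The mean of miR-21a-5p rose from 355 ± 24.4 to 597 ± 92.9 normalized CPM (SD, n = 4), which was a gain of 1.68-fold or of 242 normalized CPM. In the edgeR quasi-likelihood fit across all 564 tested miRNAs the log2 fold change (log2FC) was 0.75 (SE 0.105, Benjamini-Hochberg adjusted p = 3.58e-05). A miRNA was called at an adjusted p under 0.05 and a log2FC over 0.3 in either direction, which 1.42% of tested miRNAs did upwards and 0.532% downwards (1.95% in all). Of the 8 rises called in this fit, that of miR-21a-5p had the second largest log2 fold change. miR-146a-5p, not called in this fit, was called with a larger rise in some alternatives, among them DESeq2. miR-21a-5p was called under each of the 16 alternatives run, with log2 fold changes of 0.67 to 0.82 and adjusted p of 8.71e-10 to 0.00151. Without IL-1β replicate 4, the highest of its group, the IL-1β mean was 564 ± 81.1 (SD, n = 3) and the edgeR log2 fold change 0.67 (SE 0.0914, adjusted p = 8.74e-06).

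**Figure D1:**
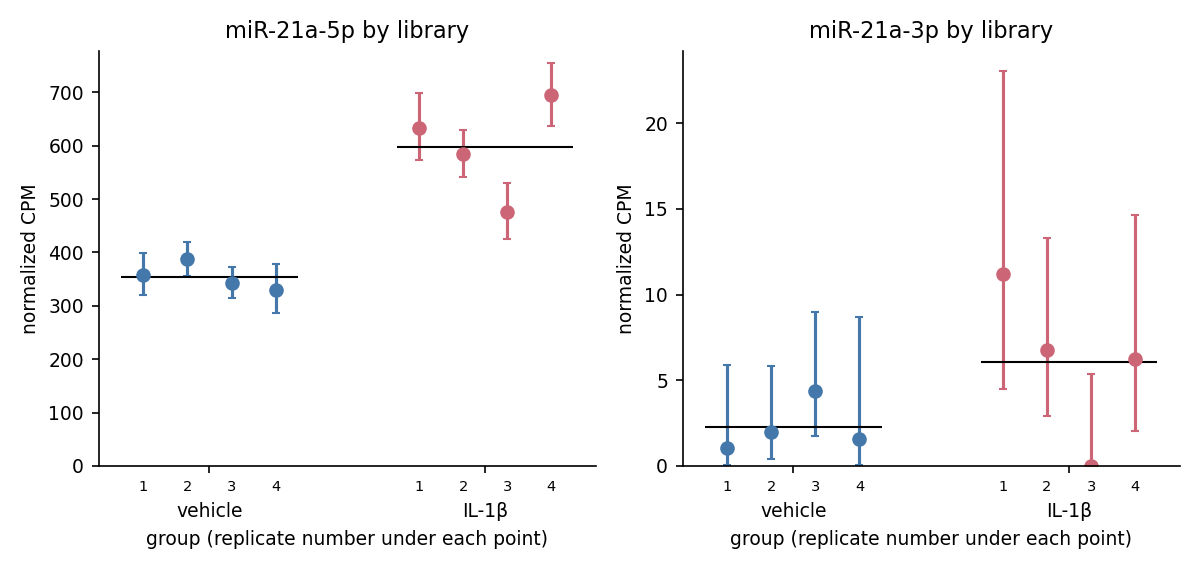
Normalized CPM of miR-21a-5p (left) and miR-21a-3p (right) in each library, by group and replicate number, with exact 95% Poisson intervals of the counts (bars) and group means (lines). For miR-21a-5p the IL-1β libraries lie at 475 to 694 and the vehicle libraries at 330 to 387, whereas for miR-21a-3p the intervals are wide and the groups overlap.

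The spread of miR-21a-5p was wider among the IL-1β libraries, a difference that was not tested. With vehicle its coefficient of variation was 6.87%, where counting error alone would give 5.21%, and the variance was 1.94 times that of counting. With IL-1β the coefficient of variation was 15.6% against 4.64% from counting, and the variance was 10.5 times that of counting. The exact 95% Poisson interval of IL-1β replicate 3, 425 to 530 normalized CPM, did not reach those of the other IL-1β libraries, the nearest of which began at 541. Intervals cover counting error only. The biological coefficient of variation that the fit used for miR-21a-5p was 0.113, close to the trend at its level. That estimate pools both groups and is drawn toward the trend, so it does not show whether the spread was ordinary.

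miR-21a-5p was in the upper part of the tested miRNAs by abundance, though far below the most abundant. By mean normalized CPM it was at rank 86 of 564, next to miR-434-5p (rank 85, 483) and miR-5100 (rank 87, 439). Its rank was 91 to 99 in the vehicle libraries and 79 to 85 in the IL-1β libraries, again without overlap. Neither of these neighbors was called: miR-434-5p was at 506 ± 23.6 and 461 ± 34.2 (SD, n = 4, log2FC -0.13, edgeR adjusted p = 0.687) and miR-5100 at 457 ± 29.0 and 421 ± 105 (SD, n = 4, log2FC -0.12, edgeR adjusted p = 0.796). The direction for miR-5100 turned without IL-1β replicate 4 (log2FC 0.05). With vehicle, both of these neighbors exceeded miR-21a-5p. Ligation and amplification favor some small RNAs over others, so ranks describe counts and not molar amounts.

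**Figure D2:**
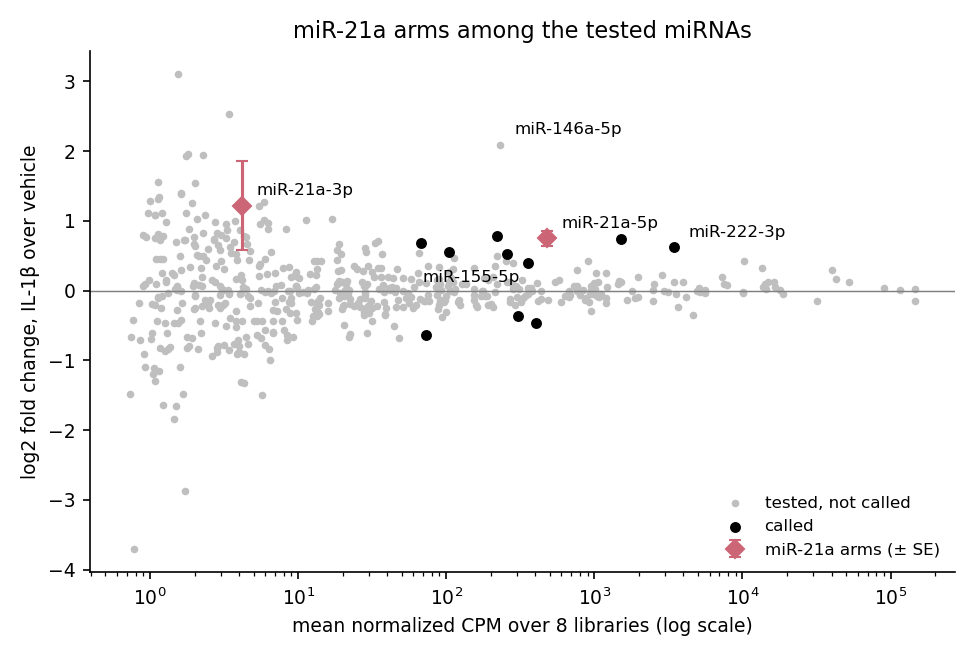
Log2 fold change (IL-1β over vehicle, edgeR) against mean normalized CPM (log scale) for the 564 tested miRNAs, with called miRNAs in black and the arms of miR-21a as diamonds with their SE. miR-21a-5p stands among the called rises at 476 normalized CPM, while miR-21a-3p lies at 4.15 normalized CPM, where the points spread widely.

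miR-21a-3p, the passenger arm, was scarce. Vehicle replicates 1 to 4 had 1, 3, 7 and 1 counts (1.06, 2.00, 4.37 and 1.56 normalized CPM). IL-1β replicates 1 to 4 had 7, 8, 0 and 5 counts (11.2, 6.74, 0 and 6.27 normalized CPM). Of the IL-1β libraries, 3 were above every vehicle library, but IL-1β replicate 3, which was also the lowest for miR-21a-5p, had 0 counts, so the observed values of the groups overlapped. That 0 allows up to 4.38 normalized CPM (3 counts), which is level with the highest vehicle library. The log2 fold change was 1.22 (SE 0.635, edgeR adjusted p = 0.518, unadjusted p = 0.0657) and was not called. Its point estimate exceeded that of the guide arm, but with 12 counts in all vehicle libraries and 20 in all IL-1β libraries its SE was large. Over 15 alternatives the log2 fold change was 0.84 to 1.82 with an adjusted p of 0.253 or more where one was given, and DESeq2 gave none.

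The arms were next compared within each library, where scaling of the totals cancels. The 3p arm took 0.709% of the counts of both arms with vehicle (12 of 1692, exact Clopper-Pearson interval 0.367% to 1.24%) and 1.01% with IL-1β (20 of 1988, 0.616% to 1.55%), with libraries pooled. The log2 ratio of 5p to 3p counts, with 1 count added to each, was 7.41, 7.18, 6.11 and 6.73 in vehicle replicates 1 to 4 and 5.63, 6.27, 8.35 and 6.53 in IL-1β replicates 1 to 4. The difference in means was -0.16 with an SE of 0.649 (exact permutation test, two-sided p = 0.857, adjusted over 4 ratio tests 0.857). Leaving out vehicle replicate 1 or IL-1β replicate 1 turned its sign (0.02 and 0.19). The high ratio of IL-1β replicate 3 rests on 0 counts of the 3p arm and the added count, and without that library the difference was -0.71 (exact permutation test, adjusted p = 0.143). With 5 counts added to each arm in place of 1 it was -0.02. No change in arm usage was detectable at this depth. The ratios of the groups did not overlap for 4.23% of the 142 hairpins with both arms tested, and miR-21a was not among them.

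In its imbalance miR-21a was in the upper part of the hairpins without being extreme. Over all 8 libraries the lesser arm, 3p, took 0.870% of 3680 counts, against a median of 7.97% for the lesser arm over the 142 hairpins. The share was as low or lower in 25 hairpins, miR-21a included. The 5p arm led in 73 of the 142.

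**Figure D3:**
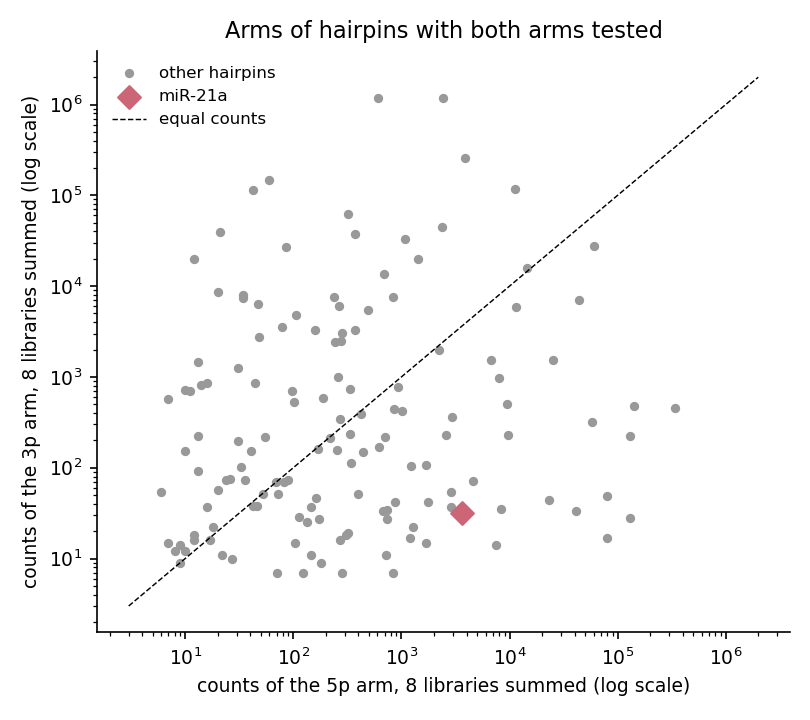
Counts of the 5p arm against the 3p arm, summed over 8 libraries (log scales), for the 142 hairpins with both arms tested. miR-21a, with 3648 and 32 counts, lies far below the dashed line of equal counts, among other hairpins with a strong lead of the 5p arm.

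miR-21b and miR-21c had 0 counts in each of the 8 libraries. With 3 counts as the limit that an observed 0 allows, each could have reached 1.91 CPM in the deepest library and 4.87 CPM in the shallowest, or 0.377 CPM over the 7959576 counts of all libraries. miR-21a-5p, at 458 CPM over the same counts, thus accounted for 99.1% of the counts of the family and miR-21a-3p for the rest. miR-21c, the relative with the same seed, was not detected, and neither relative could be tested.

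To place the size of the rise, miR-21a-5p was set against 3 other miRNAs within each library. miR-146a-5p, an NF-κB-induced miRNA that represses Irak1 and Traf6, was at 79.5, 98.1, 91.8 and 74.8 normalized CPM in vehicle replicates 1 to 4 and at 203, 201, 269 and 821 in IL-1β replicates 1 to 4. The log2 ratio of miR-21a-5p to miR-146a-5p was 2.16, 1.97, 1.90 and 2.12 with vehicle and 1.63, 1.54, 0.82 and -0.24 with IL-1β. It was lower in all 4 IL-1β libraries, by 1.10 on average (the difference was -1.10, SE 0.437, exact permutation p = 0.0286, the smallest possible with 4 against 4 libraries). Adjusted over the 4 ratio tests p was 0.0571, short of the threshold. The study had singled out miR-146a-5p on these same samples for its response to IL-1β, so its choice favors a lower ratio. Without IL-1β replicate 4, in which miR-146a-5p was highest, the groups still did not overlap and the difference was -0.71 (exact permutation p = 0.0286, the smallest possible with 4 against 3 libraries, adjusted p = 0.114).

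miR-155-5p, a miRNA induced in activated immune cells, was at 55.7 ± 14.2 normalized CPM in vehicle libraries and 54.1 ± 4.33 in IL-1β libraries (SD, n = 4, log2FC -0.03, edgeR adjusted p = 0.992). Accordingly the log2 ratio of miR-21a-5p to miR-155-5p, at 3.12, 2.67, 2.78 and 2.15 with vehicle, was 3.46, 3.56, 3.14 and 3.53 with IL-1β. All 4 IL-1β libraries were above all vehicle libraries, by a narrow margin for replicate 3 (difference 0.74, SE 0.223, exact permutation p = 0.0286, adjusted over 4 tests 0.0571).

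miR-222-3p, from a cluster on the X chromosome that represses the cell cycle inhibitor p27, was the most abundant of the 3. It rose from 2729 ± 68.2 to 4198 ± 385 normalized CPM (SD, n = 4, log2FC 0.62, SE 0.0842, edgeR adjusted p = 2.46e-05). The log2 ratio of miR-21a-5p to miR-222-3p was -2.91, -2.86, -2.99 and -3.01 with vehicle and -2.78, -2.96, -3.14 and -2.40 with IL-1β. The groups overlapped, with a difference of 0.12 (SE 0.163, exact permutation p = 0.6, adjusted over 4 tests 0.8), and without IL-1β replicate 4 it was -0.02. A difference between these rises was not detectable, which does not show them to be equal.

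**Figure D4:**
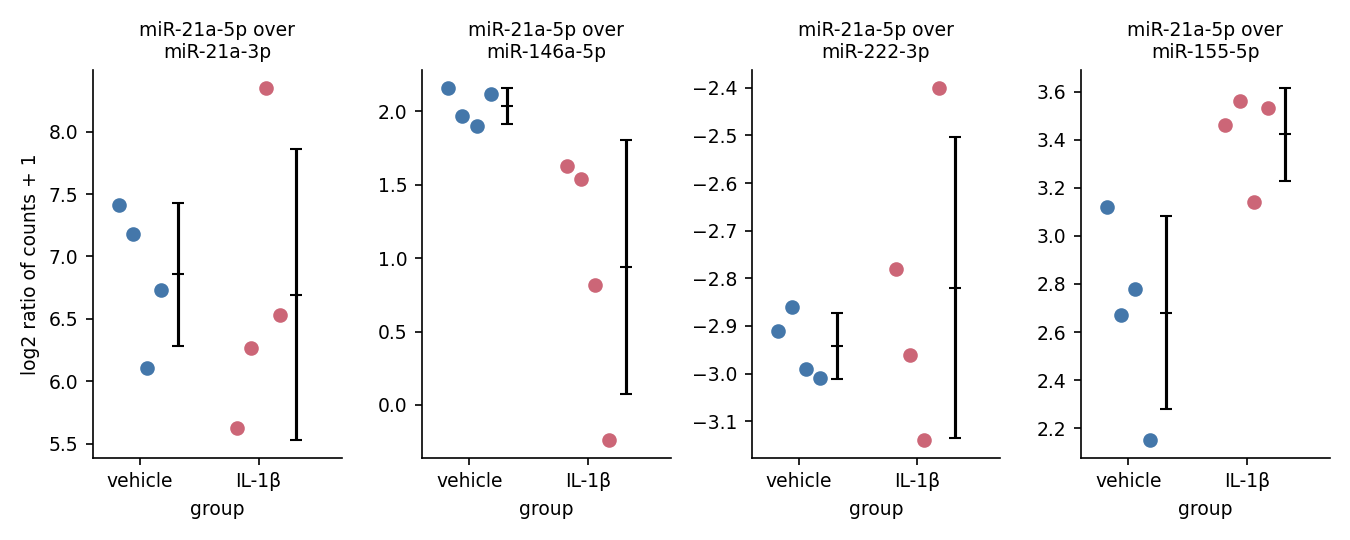
Log2 ratio of miR-21a-5p counts to those of miR-21a-3p, miR-146a-5p, miR-222-3p and miR-155-5p in each library, 1 count added to each, with group means and SD beside the points (each panel has its own axis, which does not start at 0). The ratio to miR-146a-5p is lower in every IL-1β library and that to miR-155-5p higher, while the groups overlap for miR-21a-3p and miR-222-3p.

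The same ratio was then formed with every other tested miRNA, as a description. It was above the range of the vehicle libraries in all 4 IL-1β libraries for 226 of 563 miRNAs (40.1%), and for 157 of the 194 (80.9%) that averaged 50 counts or more. These ratios share the counts of miR-21a-5p and are not independent. miR-146a-5p was the only miRNA of the 563 to which the ratio was lower without overlap (0.178%).

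The response of miR-21a-5p was also set beside a list of 15 other miRNAs linked to NF-κB, AP-1, STAT3 or p53 in inflammation and stress. Of these 15, 13 were tested and 1, miR-222-3p, was called, in the upward direction, where 1.42% of all tested miRNAs were called. miR-222 and miR-146a-5p were singled out by the study on these samples, so they are not independent evidence of a direction. The median log2 fold change of the 13 was 0.11, against 0.01 over all tested miRNAs, and 7 of the 13 were above 0. That median was -0.07 without IL-1β replicate 4, against -0.01 over all tested miRNAs, and 2 of the 13 were called upward, where 2.79% of all tested miRNAs were.

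Among the listed miRNAs 3 were higher in all IL-1β libraries: miR-222-3p, miR-146a-5p and miR-31-5p, where 4.61% of all tested miRNAs were. miR-146a-5p had the largest log2 fold change, 2.09 (SE 0.562), but its edgeR adjusted p was 0.184. Without IL-1β replicate 4 its log2FC was 1.33 (edgeR adjusted p = 1.02e-08), and DESeq2 called it with all libraries (adjusted p = 0.00188). miR-31-5p was at 2639 ± 83.2 and 3080 ± 231 normalized CPM (SD, n = 4, log2FC 0.22, edgeR adjusted p = 0.196) and was not called. Without IL-1β replicate 4 its log2FC was 0.26 (edgeR adjusted p = 0.00917), under the fold needed for a call. miR-221-3p, from the same cluster as miR-222-3p, was at 397 ± 14.6 and 429 ± 17.0 (SD, n = 4, log2FC 0.11, edgeR adjusted p = 0.753), at a level near that of miR-21a-5p. miR-146b-5p, which shares its seed with miR-146a-5p, was at 157, 207, 216 and 148 normalized CPM with vehicle and 150, 166, 194 and 536 with IL-1β (log2FC 0.50, SE 0.462, edgeR adjusted p = 0.757). Only IL-1β replicate 4 was above the vehicle libraries, and without it the log2FC was -0.14 (SE 0.127, edgeR adjusted p = 0.749).

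None of the others was called. miR-132-3p and miR-212-3p, from one cluster driven by CREB, had log2 fold changes of -0.01 and -0.22. miR-34a-5p, a target of p53, was at -0.15, miR-181b-5p at -0.05, miR-224-5p at -0.26 and miR-187-3p at 0.21, with edgeR adjusted p from 0.794 to 0.992 for these 6. miR-34a-5p and miR-212-3p were both at -0.39 when IL-1β replicate 4 was left out (edgeR adjusted p = 0.511 and 0.593). The abundant miR-125b-5p was at 0.30 (SE 0.113, edgeR adjusted p = 0.232), with IL-1β replicate 4 far above the rest, and at 0.13 without that library (SE 0.0537, edgeR adjusted p = 0.26). miR-9-5p and miR-147-3p were too scarce to be tested.

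**Figure D5:**
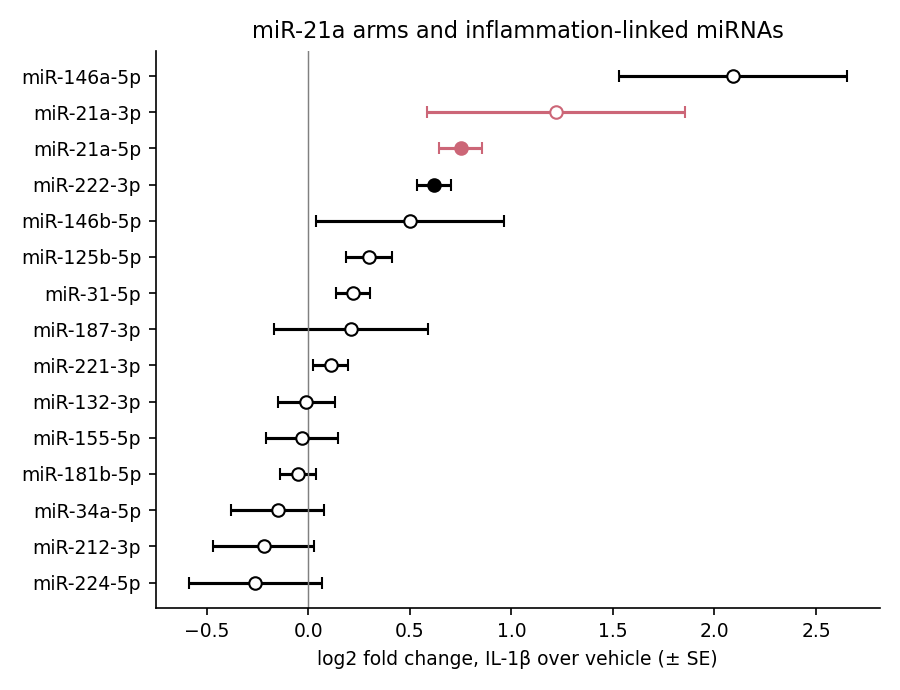
Log2 fold changes (IL-1β over vehicle, edgeR) with SE for the arms of miR-21a (red) and the 13 tested inflammation-linked miRNAs (black), filled where called. miR-21a-5p and miR-222-3p are the called ones, with short error bars, while miR-146a-5p and miR-21a-3p have larger estimates and larger SE.

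The miRNAs whose abundance followed that of miR-21a-5p most closely over the 8 libraries were ordered by the Pearson correlation of log2(normalized CPM + 1) with that of miR-21a-5p. This was done among the 194 other miRNAs that averaged 50 counts or more, whose median correlation was 0.08. The points share library and depth and include the difference between groups, so the correlations are a description only. The first 5 were miR-210-5p (0.90), miR-365-2-5p (0.90), miR-146a-5p (0.88), miR-222-3p (0.86) and miR-129-2-3p (0.84), and the sixth was at 0.84 as well. All 5 were higher in each IL-1β library than in every vehicle library (4.61% of all tested miRNAs were), a separation that their choice by this correlation favors. Over the 7 libraries without IL-1β replicate 4 their correlations were 0.91, 0.85, 0.86, 0.95 and 0.87 in the same order.

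Within the groups the correlations depended on IL-1β replicate 4 for 3 of these 5 miRNAs. For deviations from the group means, the correlation with miR-21a-5p was 0.51 for miR-146a-5p and 0.48 for miR-365-2-5p. It was 0.05 for miR-210-5p, -0.31 for miR-222-3p and -0.49 for miR-129-2-3p. Without that library the sign turned, to -0.37 for miR-146a-5p, -0.07 for miR-365-2-5p and 0.72 for miR-222-3p, and was kept at 0.10 for miR-210-5p and -0.35 for miR-129-2-3p. miR-365-2-5p was at 50.9, 56.7, 50.6 and 46.7 normalized CPM with vehicle and 76.8, 67.4, 83.3 and 108 with IL-1β, so that, as for miR-21a-5p, vehicle replicates 2 and 4 were the highest and the lowest of their group and IL-1β replicate 4 the highest of its group. miR-222-3p in contrast was lowest of its group in IL-1β replicate 4, at 3665, where miR-21a-5p was highest.

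Because miR-21 is also abundant in macrophages, fibroblasts and epithelia, markers of other cells were read beside its rise. No marker of fibroblasts was among them, so the presence of these cells was not examined. The 6 haematopoietic markers summed to 43.5 to 62.5 normalized CPM with vehicle and 25.6 to 45.5 with IL-1β, nearly all of it miR-150-5p. Of these 6, miR-223-3p, miR-142a-3p, miR-451a and miR-144-3p were at 0 counts in all libraries. The other arm of miR-142a, miR-142a-5p, had 4 counts, all in vehicle replicate 3. The 3 muscle markers and the liver marker miR-122-5p were at 0 as well, and the pair of endothelial markers had 8 counts in all. The 6 epithelial markers had 20 counts in all, with miR-200c-3p and miR-429-3p at 0. They summed to 0 to 1.56 normalized CPM with vehicle and to 1.6 to 10.2 with IL-1β. These sums parted by a very narrow margin at very low counts, where 4.61% of all tested miRNAs separated upwards. Each of the 6 markers alone overlapped between the groups. Their part in the rise of miR-21a-5p was not tested. In bulk cultures a change in the share of cells of a type and a change in RNA per cell cannot be told apart.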

How the data were processed

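The submitters deposited 1 table holding the raw counts of each mature miRNA in 8 libraries, all of which were matched to a sample by name. According to the methods of the study, the authors trimmed reads with cutadapt, aligned them to mm10 with STAR and counted them with featureCounts. The version of STAR differed between sources, and strand and multi-mapping settings were not given in the sources used here. RUVseq correction was described, but the counts as deposited were whole numbers with unequal totals and were taken as uncorrected. The listed length of each miR-21 family member (21 to 23 nt) matched 1 mature sequence. Reads that STAR could not place would be missing.

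Here, counts were tested with edgeR 4.0.16 in R 4.3.3 (TMM, robust quasi-likelihood fit, two-sided, group as the only term) for miRNAs over 1 CPM in at least 4 of 8 libraries, with Benjamini-Hochberg adjustment over all 564. The SE is the log2 fold change divided by the root of F. Ratios within libraries were compared by an exact permutation test of 70 arrangements. Depth was 616475 to 1568367 counts per library. Intervals are exact, at 95%, and a count of 0 allows 3 counts. The fit was tested on simulated data. Alternatives were other scaling, filters, DESeq2 1.42.0, limma-voom (limma 3.58.1), a replicate block, 1 factor of unwanted variation and leaving out each library. Named were the family, miRNAs of the same seed, miR-146a-5p, miR-222-3p, miR-155-5p, the inflammation-linked list, the 5 miRNAs most like miR-21a-5p and its neighbors in level. Any other is named as chosen after its values were seen, and markers of cell types were listed separately. Members, lists and tests were chosen with earlier results of these data known.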

Additional observations from a re-analysis of the deposited data

Results flagged for a closer look

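In 5 of 51 groups of 4 libraries examined for the miRNAs and ratios above, a library lay far from the other 3, with most of the range of the group in a single gap. Chance gives about 1 such case in 20 groups. None of the 5 was a value of a miR-21 family member or a ratio to miR-21a-5p. IL-1β replicate 4 was at 821 normalized CPM for miR-146a-5p, against 201 to 269 in the other IL-1β libraries, and this value enters the ratio of miR-21a-5p to miR-146a-5p. The same library was at 536 for miR-146b-5p, against 150 to 194, and at 58673 for miR-125b-5p, against 37476 to 41063. miR-9-5p was at 1.335 normalized CPM (2 counts) in vehicle replicate 2 and at 1.461 (1 count) in IL-1β replicate 3 and at 0 in the other libraries, where any single library with a count stands apart, so that the rate of 1 in 20 does not apply to these 2 cases.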

How the results depend on the processing

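miR-21a-5p was called in all 16 alternatives and miR-21a-3p in none of the 15 that gave it a value. The remaining alternative left miR-21a-3p out, as it did not reach a mean of 10 counts, and DESeq2 gave it no adjusted p. The number of miRNAs called, 11, was 12 with DESeq2, 19 with a replicate block and 23 with 1 factor of unwanted variation, each holding all 11. Leaving out 1 library gave 6 to 19 calls: 7 without vehicle replicate 2 or IL-1β replicate 3, 6 without vehicle replicate 4 and 19 without IL-1β replicate 4. The inflammation-linked list had 2 calls in place of 1 with DESeq2, with 1 factor of unwanted variation and without IL-1β replicate 4, where 2.13%, 4.08% and 3.54% of all tested miRNAs were called (range 1 to 2 over the libraries left out). Without IL-1β replicate 4, left out of these values after seeing the data, the median log2 fold change of the list turned from 0.11 to -0.07, that of miR-146b-5p from 0.50 to -0.14 and that of miR-5100 from -0.12 to 0.05. The correlation of deviations with miR-21a-5p turned to -0.37 for miR-146a-5p, -0.07 for miR-365-2-5p and 0.72 for miR-222-3p. The log2 fold change of miR-155-5p turned to 0.01 with limma-voom, 0.03 without vehicle replicate 2 and 0.06 without vehicle replicate 4 (-0.14 to 0.06 over the libraries left out). Over the libraries left out, the change in the arm ratio ranged from -0.71 to 0.19, that in the ratio to miR-222-3p from -0.02 to 0.23, to miR-146a-5p from -1.33 to -0.71 and to miR-155-5p from 0.56 to 0.89. The causes were not tested. Same-numbered libraries did not deviate together (correlations of 0.17, -0.34, 0.10 and -0.18 for numbers 1 to 4), so the numbers were not taken as pairs. With the replicate block the log2 fold change of miR-21a-5p was 0.73 (edgeR adjusted p = 2.30e-08), and the exact sign-flip test of the ratios cannot go below p = 0.125 with 4 pairs. Counts were few for miR-21a-3p and absent for miR-21b and miR-21c, and whether greater depth would change this was not tested.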

Other observations

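At the other end of the order of likeness, and named after its values were seen, miR-381-3p had the lowest correlation with miR-21a-5p over the 8 libraries, -0.96. miR-381-3p, from the large imprinted miRNA cluster of chromosome 12, lay below the range of the vehicle libraries in each IL-1β library, at a log2FC of -0.37 (SE 0.0932, edgeR adjusted p = 0.0323). As both were called in opposite directions, a negative correlation over libraries of both groups follows in part from the difference between groups.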
